A study of Mus musculus with 8 samples.

Results

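The 32 astrocyte genes described here were chosen by name as markers of astrocytes, and all 32 were found among the 39017 genes of a count table from hippocampal CCK cells of mice. RNA was collected by translating ribosome affinity purification (TRAP), in which ribosomes that carry the ribosomal protein L10 fused to EGFP are pulled down with the RNA they hold. All mice were CCK cre+ and L10-EGFP+, so the tag marks cells in which the Cck gene drives, or once drove, Cre recombinase. The 5 cKO libraries came from SMARCA3 fl/fl mice, in which Cre deletes Hltf, the gene of the chromatin remodeller SMARCA3, and the 3 WT libraries came from littermates without that floxed genotype. Each library pooled 4 hippocampi, so the p-values measure the spread between these pools, and neither age nor sex is given in the labels. No RNA from before the pull-down was analysed here, so enrichment or depletion of a gene by the pull-down could not be measured.

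Astrocytes are the glial cells that clear glutamate and GABA from synapses, buffer potassium and water, join into networks through gap junctions and supply neurons with metabolites and lipoproteins. In the hippocampus their fine processes surround synapses of the pyramidal and granule cells. Several genes used as astrocyte markers, such as Glul, Sparcl1, Cst3, Atp1b2, Clu and the metallothioneins, are not confined to astrocytes, whereas Aldh1l1, Gja1, Aqp4 and Gfap are close to specific for them in the adult hippocampus.

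Counts per library ran from 31760155 to 61823651, and 17654 genes with enough counts were tested, all 32 astrocyte genes among them. Levels within 1 gene are given as CPM, counts scaled to the library total after trimmed-mean scaling of the totals, and levels between genes as CPM per kilobase of exon (RPKM). Hltf, the targeted gene, was at 13.7, 8.39 and 9.87 CPM in WT 1, 2 and 3 and at 5.10, 4.49, 4.21 and 2.83 CPM in cKO 1, 2, 3 and 4. The library labelled cKO 5 had 11.4 CPM of Hltf, within the WT range and against its label, so values without it are given beside those that it moves most. For Hltf edgeR gave a log2 fold change of -0.93 (SE 0.39) and a Benjamini-Hochberg adjusted p of 0.558, and without that library -1.36, with an unadjusted p of 3.4e-04 and an adjusted p of 0.359; over 18 alternatives the adjusted p ran from 0.131 to 0.951. Cck was at 413 ± 85.9 RPKM in WT (SD, n = 3), above 97.7% of the genes tested, and the neuronal gene Snap25 was at 2818 ± 327 RPKM.

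In WT pull-downs the astrocyte genes spread from 0.00892 to 68.6 RPKM, and Aldh1l1, Gja1 and Gfap were the 3 lowest. The median astrocyte gene was at 1.52 RPKM in WT, against 3.23 RPKM for all genes tested, and 20 of 32 lay below that midpoint. Of the 32 genes, 7 were at 10 RPKM or more, 10 between 1 and 10 RPKM, and 15 under 1 RPKM. For comparison, the median of 12 markers of neurons of any type was 75.9 RPKM and that of 14 markers of glutamatergic neurons 53.9 RPKM. Other neuronal lists lay much lower, with medians of 2.80 RPKM for 13 markers of GABAergic neurons and 2.21 RPKM for 10 of CCK interneurons. The median of 15 oligodendrocyte markers was 0.229 RPKM, that of 14 microglial markers 0.192 RPKM and that of 12 vessel markers 0.0270 RPKM.

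The 7 highest were Cst3, Sparcl1, Atp1b2, Mt1, Slc1a2, Mt2 and Glul. Cst3 (cystatin C, a secreted protease inhibitor) was at 68.6 ± 10.6 RPKM in WT (SD, n = 3), Sparcl1 (hevin, a secreted synapse-organising protein) at 53.7 ± 3.24 RPKM and Atp1b2 (the beta-2 subunit of the sodium pump) at 43.5 ± 2.31 RPKM. Mt1 was at 34.2 ± 2.52, Slc1a2 at 26.5 ± 4.04, Mt2 at 19.7 ± 3.44 and Glul at 17.8 ± 2.64 RPKM in WT. The WT libraries of neighbours in this order did not overlap from Cst3 down to Slc1a2, although Cst3 and Sparcl1 were separated only by 57.6 against 57.4 RPKM in WT 3. Slc1a2 and Mt2 overlapped, as did Mt2 and Glul. At the low end, Aldh1l1 was at 0.00892 ± 0.00882 RPKM in WT, Gja1 at 0.0387 ± 0.0243 and Gfap at 0.133 ± 0.106 (SD, n = 3).

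**Figure D1:**
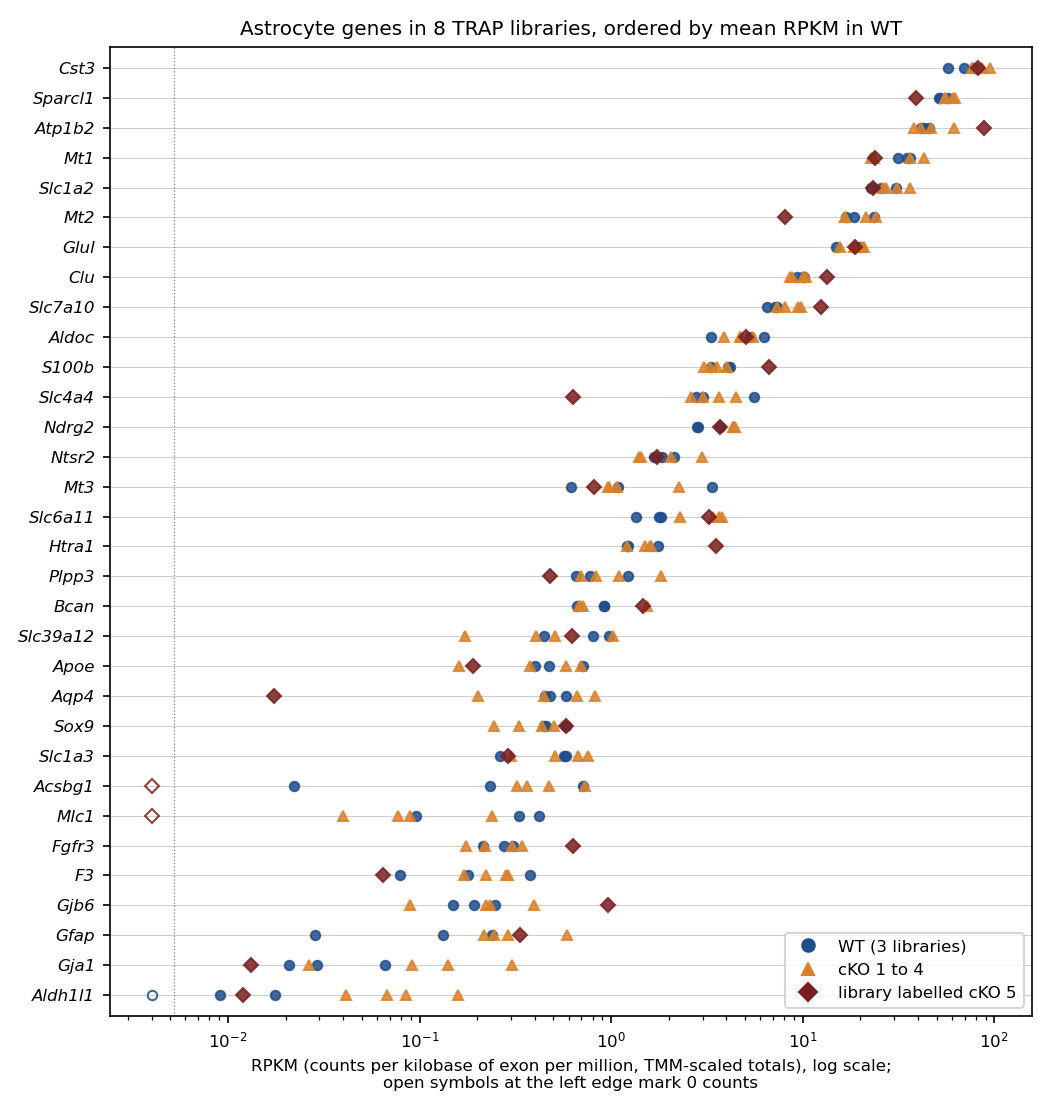
RPKM of each of the 32 astrocyte genes (rows, ordered by the mean of the 3 WT libraries) in every library, on a log axis; points are WT libraries, cKO 1 to 4 and the library labelled cKO 5, and open symbols at the left edge are 0 counts. Cst3 heads the order at a WT mean of 68.6 RPKM and Aldh1l1 ends it at 0.00892 RPKM, and the scatter between libraries widens toward the low end.

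Levels were low in a second list too: of 40 other genes known as astrocyte markers, 32 were under 1 RPKM in WT and their median was 0.161 RPKM. The 6 genes Gfap, Aqp4, Aldh1l1, Slc1a3, Gja1 and Sox9 summed to 8.25 to 11.9 CPM per library in WT. Their sum in cKO ran from 6.57 CPM, in the library labelled cKO 5, to 15.3 CPM, in cKO 3. These sums rest on 242 to 808 counts per library, and 3 counts corresponded to 0.0479 to 0.0935 CPM. In pooled RNA of this kind, fewer cells of a type and less RNA per cell cannot be told apart.

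**Figure D2:**
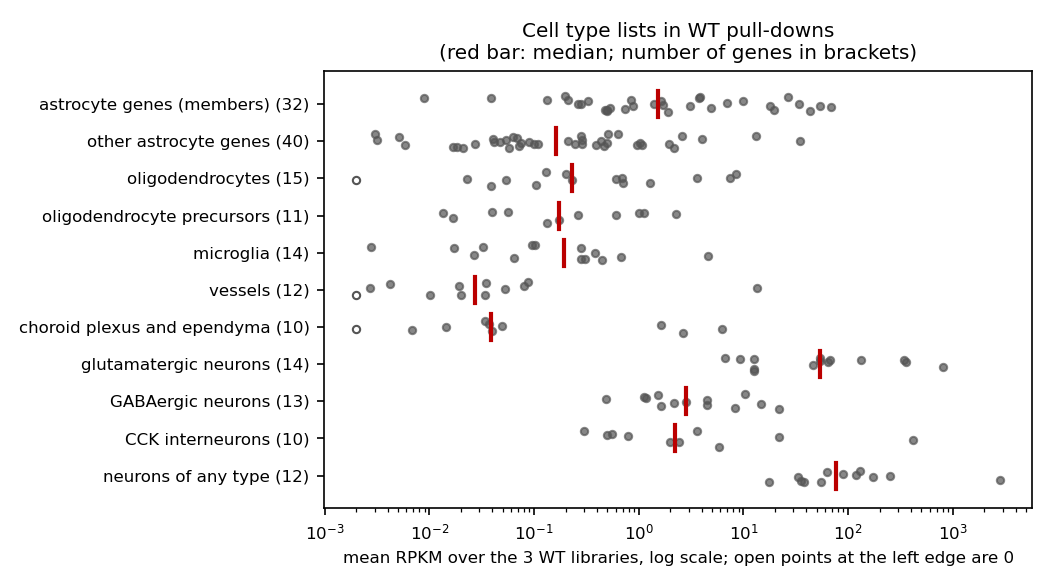
Mean RPKM of each gene over the 3 WT libraries (log axis), by cell type list; each point is 1 gene, the red bar is the list's median, and open points at the left edge are at 0. The astrocyte genes have a median of 1.52 RPKM and run from 0.00892 to 68.6 RPKM, while the other astrocyte genes have a median of 0.161 RPKM and the neuronal genes of any type 75.9 RPKM. The medians of the GABAergic and CCK interneuron lists are 2.80 and 2.21 RPKM.

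The comparison of cKO with WT asks how RNA in CCK-cell pull-downs differs when SMARCA3 is deleted. No astrocyte gene passed an adjusted p of 0.05 by edgeR in either direction. Over all genes tested, 0% passed. Slc6a11, which encodes the GABA transporter GAT-3, came nearest: its mean was 1.99 times as high in cKO, and it was the only one called when the counts were tested with DESeq2 (adjusted p 0.00256). Of the genes to which DESeq2 gave an adjusted p, it called 0.678% higher in cKO. It gave none to some of the 32, among them Aldh1l1, Gfap, Aqp4, Slc1a3, Gja1, Sox9 and Mt3, so these could not be called. limma-voom called 0 of the 32. At an unadjusted edgeR p under 0.05, 5 astrocyte genes were higher in cKO, 15.6% of the 32, against 5.02% of all genes tested, and 0 were lower, against 3.7% (8.72% in either direction). The 5 were Slc6a11, Ndrg2, Aldh1l1, Cst3 and Slc7a10, 1 in each role group except the metallothioneins. WT and cKO libraries did not overlap for 2 astrocyte genes higher in cKO (6.25%, against 3.38% of all genes tested) and for 0 lower (against 3.82%). The 2 were Slc6a11 and Ndrg2. For Ndrg2 the groups nearly met, at 12.53 CPM in WT 3 and 12.58 CPM in the library labelled cKO 5. The count of 5 was 1 without WT 1, 2 without cKO 1, and 3 without WT 2, WT 3 or cKO 2, and without cKO 1 Mlc1 also had an unadjusted p under 0.05, in the lower direction. The count of 2 without overlap was 4 without WT 2.

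The median log2 fold change of the 32 genes was 0.10, against 0.02 over all genes tested. Above 0 were 21 values (65.6%, against 53.0% of all genes tested), and 11 were below. The median was 0.01 without WT 2, 0.04 without cKO 1 and 0.16 without WT 3. Values ran from -1.64 for Mlc1 to 2.90 for Aldh1l1. The standard errors followed the level: their median was 0.69 for the 15 genes under 1 RPKM in WT, 0.25 for the 10 between 1 and 10 RPKM, and 0.15 for the 7 at 10 RPKM or more.

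**Figure D3:**
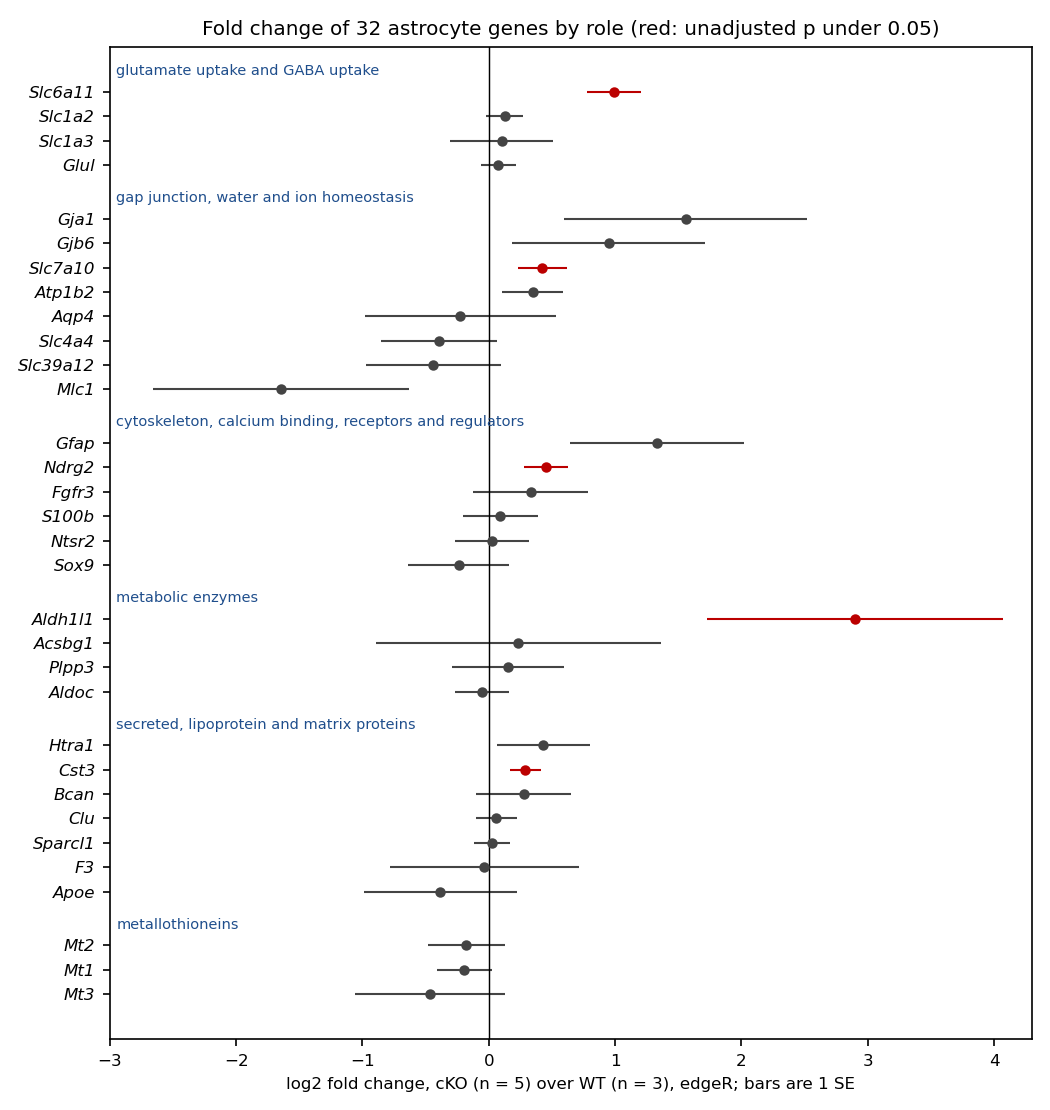
Log2 fold change of each astrocyte gene in cKO (n = 5) over WT (n = 3), with bars of 1 SE from edgeR, grouped by role; red marks an unadjusted p under 0.05. The 5 red genes, Slc6a11, Slc7a10, Ndrg2, Aldh1l1 and Cst3, all lie above 0, and the longest bars belong to genes under 1 RPKM such as Aldh1l1, Acsbg1 and Mlc1.

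Among the genes of glutamate and GABA uptake, the GABA transporter Slc6a11 was higher in every cKO library, while the glutamate transporters and glutamine synthetase had log2 fold changes of 0.08 to 0.12. Slc6a11 (ENSMUSG00000030307, mm10 chromosome 6, 114131241 to 114249952, plus strand) was at 8.99, 9.18 and 6.78 CPM in WT 1, 2 and 3. The cKO 1 to 4 values were 11.6, 17.1, 18.5 and 19.2 CPM, and the library labelled cKO 5 had 16.4 CPM. All 5 cKO values lay above all 3 WT values, with cKO 1 nearest to WT. Means were 8.32 ± 1.33 CPM over the 3 WT libraries (mean ± SD) and 16.6 ± 3.001 CPM over the 5 cKO libraries, and 16.6 ± 3.46 CPM without the library labelled cKO 5. edgeR put the difference at a log2 fold change of 0.99 (SE 0.21), unadjusted p 7.1e-04, Benjamini-Hochberg adjusted p 0.470. Over 18 alternative settings its log2 fold change ran from 0.86 to 1.10, and its unadjusted p was under 0.05 in all 18, while the adjusted p ran from 0.00256 to 0.951. No annotated gene overlaps Slc6a11, and between 329 and 1073 counts per library stand behind it.

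Slc1a2 (ENSMUSG00000005089, chromosome 2, 102658659 to 102790784, GLT-1, the main glutamate transporter of the forebrain) was at 299.9, 338 and 405 CPM in WT 1, 2 and 3, at 478, 358, 407 and 344 CPM in cKO 1, 2, 3 and 4, and at 307 CPM in the library labelled cKO 5. The groups overlapped, and the log2 fold change was 0.12 (SE 0.15). Slc1a3 (ENSMUSG00000005360, chromosome 15, 8634124 to 8710764, the glutamate transporter GLAST) was at 4.87, 2.25 and 4.95 CPM in WT, at 6.44, 4.35, 5.74 and 2.57 CPM in cKO 1 to 4 and at 2.47 CPM in the library labelled cKO 5. Its low values, in WT 2, cKO 4 and the library labelled cKO 5, occurred in both groups, and its log2 fold change of 0.10 (SE 0.41) turned below 0 when WT 2, cKO 1 or cKO 3 was left out. Per length, Slc1a2 at 26.5 RPKM stood far above Slc1a3 at 0.471 ± 0.180 RPKM in WT (SD, n = 3). Glul (ENSMUSG00000026473, glutamine synthetase, which turns glutamate into glutamine) was at 59.2 ± 8.76 CPM in WT and 62.4 ± 6.85 CPM in cKO, with a log2 fold change of 0.08 (SE 0.14).

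**Figure D4:**
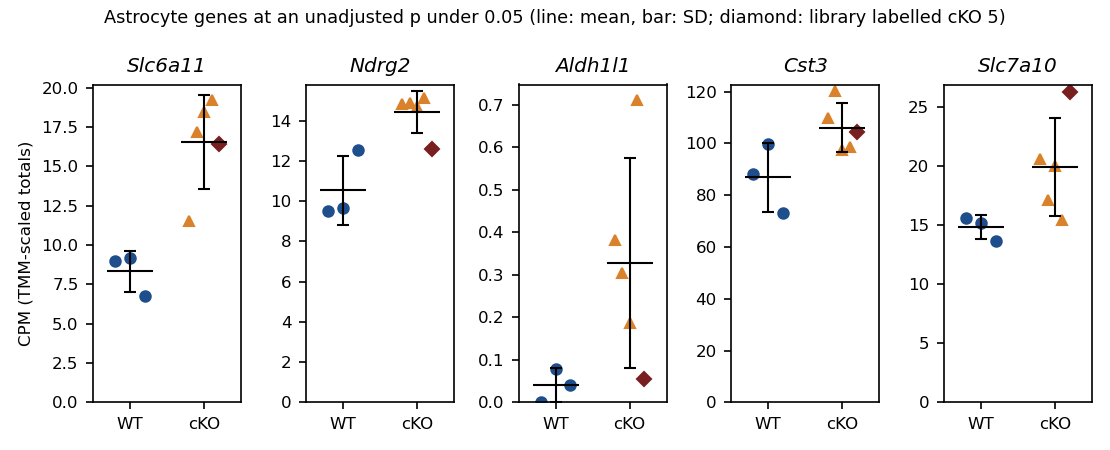
CPM by library (linear axis from 0) of the 5 astrocyte genes at an unadjusted p under 0.05; each point is 1 library, lines are group means, bars are SD and the diamond is the library labelled cKO 5. The cKO points of Slc6a11 lie at 11.6 to 19.2 CPM, all above the WT points at 6.78 to 9.18 CPM, whereas the Aldh1l1 points of the library labelled cKO 5 and of WT lie together near 0.

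The genes of gap junctions, water and ion handling gave 4 values above 0 and 4 below, and 1 of 8, Slc7a10, had an unadjusted p under 0.05. Slc7a10 (ENSMUSG00000030495, chromosome 7, 35186385 to 35201114, Asc-1, a transporter of small neutral amino acids that include glycine and D-serine) was at 15.6, 15.2 and 13.7 CPM in WT. The cKO 1 to 4 values were 20.6, 17.1, 20.02 and 15.4 CPM, and the library labelled cKO 5 had 26.3 CPM. Only cKO 4 reached into the WT range, and the library labelled cKO 5 was the highest of all. edgeR put the difference at a log2 fold change of 0.42 (SE 0.19), unadjusted p 0.0481, Benjamini-Hochberg adjusted p 0.566. Leaving out the library labelled cKO 5 gave 0.30 and an unadjusted edgeR p of 0.0935. Slc7a10 overlaps Lrp3 on the other strand, and whether the counting used strand is not given in the sources used here. Slc1a2, Glul, Gfap, S100b, Aldh1l1, Sparcl1 and Htra1 also overlap an annotated gene on the other strand. Its unadjusted p was under 0.05 in 10 of 18 alternative settings.

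Gja1 (ENSMUSG00000050953, chromosome 10, 56377330 to 56402513, connexin 43, the main gap junction protein of astrocytes) was at 0.213, 0.299 and 0.680 CPM in WT 1, 2 and 3. The cKO 1 to 4 values were 1.44, 0.272, 0.935 and 3.11 CPM, and the library labelled cKO 5 had 0.136 CPM. The cKO group thus held both the highest and the lowest of the 8 values, from 144 counts in cKO 4 to 5 counts in the library labelled cKO 5. edgeR gave a log2 fold change of 1.56 (SE 0.96), and leaving out the library labelled cKO 5 gave 1.83 with an unadjusted edgeR p of 0.0445, whereas leaving out cKO 4 gave 0.80 with an unadjusted p of 0.391. Gjb6 (ENSMUSG00000040055, connexin 30) had means of 0.526 ± 0.133 CPM in WT and 1.02 ± 0.920 CPM in cKO, with its highest value, 2.58 CPM, in the library labelled cKO 5. Without that library its cKO mean was 0.629 ± 0.335 CPM (SD, n = 4). The pair of astrocyte connexins therefore had opposite extremes in that library.

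Aqp4 (ENSMUSG00000024411, the water channel of astrocyte endfeet) was at 2.98, 3.61 and 2.80 CPM in WT and at 2.78, 4.14, 5.11 and 1.25 CPM in cKO 1 to 4. Only 4 counts, or 0.109 CPM, came from the library labelled cKO 5. Its log2 fold change came to -0.22 (SE 0.76) over all libraries and 0.08 without the library labelled cKO 5, so its sign rested on that library. Mlc1 (ENSMUSG00000035805, a membrane protein of astrocyte endfeet) had means of 0.791 ± 0.469 CPM in WT and 0.250 ± 0.255 CPM in cKO, with 0 counts in the library labelled cKO 5, and a log2 fold change of -1.64 (SE 1.01). Slc4a4 (ENSMUSG00000060961, a sodium bicarbonate cotransporter) was at 40.99 ± 16.8 CPM in WT and 31.2 ± 15.7 CPM in cKO, and at 37.3 ± 8.95 CPM in cKO without the library labelled cKO 5, where it was at 6.82 CPM. All 3 of these genes had their lowest value in the library labelled cKO 5.

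Atp1b2 (ENSMUSG00000041329, chromosome 11, 69599736 to 69605942) stood at 187, 177 and 169 CPM in WT, at 191, 156, 169 and 251 CPM in cKO 1 to 4 and at 361 CPM in the library labelled cKO 5. The first 3 cKO libraries lay around the WT values and the other pair above them. Its log2 fold change was 0.35 (SE 0.24) and 0.11 without the library labelled cKO 5. Slc39a12 (ENSMUSG00000036949, a zinc importer) was at 2.23 ± 0.814 CPM in WT and 1.64 ± 0.940 CPM in cKO, with a log2 fold change of -0.44 (SE 0.53).

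In the group of cytoskeletal, calcium-binding, receptor and regulatory genes, 1 of 6, Ndrg2, had an unadjusted p under 0.05. Ndrg2 (ENSMUSG00000004558, chromosome 14, 51905271 to 51914158, a member of the NDRG family of cytoplasmic proteins that is abundant in astrocytes) was at 9.49, 9.64 and 12.5 CPM in WT 1, 2 and 3. The cKO 1 to 4 values were 14.8, 14.9, 14.7 and 15.1 CPM, and the library labelled cKO 5 had 12.6 CPM. The first 4 cKO libraries lay close together above WT, and the library labelled cKO 5 was level with WT 3. The mean in cKO was 14.4 ± 1.05 CPM with it (SD, n = 5) and 14.9 ± 0.187 CPM without it (SD, n = 4), against 10.6 ± 1.71 CPM in WT. edgeR put the difference at a log2 fold change of 0.45 (SE 0.18), unadjusted p 0.0260, Benjamini-Hochberg adjusted p 0.532. Its unadjusted p was under 0.05 in 16 of 18 alternative settings.

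Gfap (ENSMUSG00000020932, chromosome 11, 102887336 to 102900912, the intermediate filament protein whose level climbs in reactive astrocytes) was at 0.558, 0.120 and 1.01 CPM in WT. The cKO 1 to 4 values were 0.919, 2.49, 1.22 and 1.04 CPM, and the library labelled cKO 5 had 1.41 CPM. WT 3 lay among the cKO values, and the rest of WT below them. edgeR put the difference at a log2 fold change of 1.33 (SE 0.69), unadjusted p 0.0795, Benjamini-Hochberg adjusted p 0.620, on 6 to 156 counts per library. The log2 fold change was 0.85 without WT 2 and 2.07 without WT 3, the latter with an unadjusted edgeR p of 0.0307. DESeq2 gave an unadjusted p of 0.0464 and limma-voom 0.0191, the latter with an adjusted p of 0.303, and over the alternatives that gave an adjusted p it ran from 0.303 to 0.952. Of 34 other genes linked to reactive astrocytes, 18 were tested, 0 had an unadjusted edgeR p under 0.05 and their median log2 fold change was 0.18. In that list, 7 genes, Steap4, Timp1, Cxcl10, Gbp2, Tgm1, Slc10a6 and Cd14, had at most 3 counts in every library. The smallest p in the list belonged to Serpina3n, a secreted serine protease inhibitor, at 88.7 ± 13.7 CPM over the 3 WT libraries (mean ± SD) and 114 ± 21.5 CPM over the 5 cKO libraries, with a log2 fold change of 0.36 (SE 0.17).

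Sox9 (ENSMUSG00000000567, chromosome 11, 112782224 to 112787760, a transcription factor of astrocyte nuclei in the adult brain) was at 1.83, 1.89 and 2.39 CPM in WT, at 1.80, 1.36, 2.09 and 1.01 CPM in cKO 1 to 4 and at 2.39 CPM in the library labelled cKO 5. The groups overlapped over most of their range, and the log2 fold change was -0.24 (SE 0.40). S100b (ENSMUSG00000033208, a calcium-binding protein that oligodendrocytes also make) was at 5.72 ± 0.703 CPM in WT and 6.11 ± 2.18 CPM in cKO, or 5.17 ± 0.629 CPM without the library labelled cKO 5. Fgfr3 (ENSMUSG00000054252, a fibroblast growth factor receptor) was at 1.89 ± 0.339 and 2.39 ± 1.28 CPM in WT and cKO, and Ntsr2 (ENSMUSG00000020591, a neurotensin receptor) at 5.90 ± 0.725 and 5.99 ± 2.02 CPM. Without the library labelled cKO 5, where Fgfr3 was at 4.51 CPM, its cKO mean was 1.86 ± 0.549 CPM, so the cKO means of S100b and Fgfr3 lay above WT with that library and below WT without it. The log2 fold changes of S100b, Fgfr3 and Ntsr2 were 0.09, 0.33 and 0.03.

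Of the 4 metabolic enzymes, Aldh1l1 had an unadjusted p under 0.05, on very few counts. Aldh1l1 (ENSMUSG00000030088, chromosome 6, 90486427 to 90600203, an enzyme of folate metabolism and a widely used astrocyte marker) had 0, 4 and 2 counts in WT 1, 2 and 3. From cKO 1, 2, 3 and 4 came 20, 19, 6 and 33 counts, and from the library labelled cKO 5 only 2. The first 4 cKO libraries lay above WT, at 0.187 to 0.713 CPM, and the library labelled cKO 5, at 0.0543 CPM, lay within WT. The WT mean of 0.0403 CPM was below the level of 3 counts in every library, and the fitted log2 fold change, which is no bound, was 2.90 (SE 1.17), or 2.40 without WT 1 and 3.75 without WT 2. By edgeR its unadjusted p was 0.0305 and its Benjamini-Hochberg adjusted p 0.541, and the unadjusted p was under 0.05 in 9 of the 12 alternative settings in which it was tested.

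The other enzymes had unadjusted p-values of 0.739 to 0.840. Aldoc (ENSMUSG00000017390, the brain form of the glycolytic enzyme aldolase) was at 16.2 ± 4.90 CPM in WT and 15.6 ± 1.94 CPM in cKO, with a log2 fold change of -0.05 (SE 0.22). Acsbg1 (ENSMUSG00000032281, an acyl-CoA synthetase) was at 1.17 ± 1.28 and 1.36 ± 0.949 CPM, with 4 counts in WT 2 and 0 in the library labelled cKO 5 and 97 to 164 counts in its highest libraries, WT 1 and cKO 2. Plpp3 (ENSMUSG00000028517, a lipid phosphate phosphatase) was at 2.80 ± 0.942 and 3.11 ± 1.62 CPM in WT and cKO.

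The secreted, lipoprotein and matrix genes gave 5 values above 0 and 2 below, with 1 of 7, Cst3, at an unadjusted p under 0.05. Cst3 (ENSMUSG00000027447, chromosome 2, 148871722 to 148875692) stood at 88.1, 99.6 and 73.0 CPM in WT, at 109.9, 120.4, 97.4 and 98.6 CPM in cKO 1 to 4 and at 104 CPM in the library labelled cKO 5. Only WT 2 reached into the cKO range, above cKO 3 and 4. edgeR put the difference at a log2 fold change of 0.29 (SE 0.12), unadjusted p 0.0399, Benjamini-Hochberg adjusted p 0.560. The unadjusted p was under 0.05 in 13 of 18 alternative settings. Sparcl1 (ENSMUSG00000029309, chromosome 5, 104079111 to 104113733) stood at 152, 153 and 169 CPM in WT, at 163, 183, 163 and 179 CPM in cKO 1 to 4 and at 115 CPM in the library labelled cKO 5. The lone low value was in that library, and the log2 fold change of 0.03 (SE 0.14) took both signs over the alternative settings.

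Apoe (ENSMUSG00000002985, the main apolipoprotein made by astrocytes) was at 0.527 ± 0.161 RPKM in WT (SD, n = 3), above only 19.7% of the genes tested, and Clu (ENSMUSG00000022037, the apolipoprotein clusterin) at 9.83 ± 0.420 RPKM. In CPM, Apoe was at 1.13 ± 0.345 in WT and 0.859 ± 0.503 in cKO, with 16 counts from cKO 4 and 15 from the library labelled cKO 5. Clu was at 33.8 ± 1.44 CPM in WT and 35.2 ± 6.74 CPM in cKO, or 32.5 ± 3.08 CPM without the library labelled cKO 5, which turned it from above to below WT. The WT libraries of Clu had a coefficient of variation of 4.27%, the smallest of the 32 genes. The largest, 109.6%, was that of Acsbg1. Bcan (ENSMUSG00000004892, the matrix proteoglycan brevican) was at 3.40 ± 0.598 CPM in WT and 4.13 ± 1.80 CPM in cKO, with a log2 fold change of 0.28 (SE 0.38). Htra1 (ENSMUSG00000006205, a secreted serine protease) was at 4.02 ± 0.881 and 5.44 ± 2.66 CPM, with a log2 fold change of 0.43 (SE 0.37). The library labelled cKO 5 carried the higher Htra1 mean, at 10.1 CPM against 3.48 to 4.66 CPM in the other cKO libraries, and without it the cKO mean was 4.27 ± 0.546 CPM. F3 (ENSMUSG00000028128, tissue factor, the starter of blood clotting) lay between 0.163 and 0.948 CPM in all libraries, with means of 0.533 ± 0.381 CPM in WT and 0.520 ± 0.234 CPM in cKO (0.610 ± 0.141 CPM without the library labelled cKO 5, above WT) and a log2 fold change of -0.04 (SE 0.75).

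Mt1, Mt2 and Mt3 encode metallothioneins, small proteins that bind zinc and copper. Mt1 and Mt2 are induced by zinc through the metal-responsive factor MTF-1 and by glucocorticoids, whereas Mt3 is the brain form and is known to respond little to metals. The 3 genes lie on the plus strand within 27721 bases of chromosome 8, and their promoters are printed here because Mt1 and Mt2 stood high and Mt3 low in these pull-downs. Each runs from 250 bases before to 30 bases after the RefSeq start (GRCm38.p6, 5′ to 3′), and capitals mark matches on either strand to TGCACNC or TGCGCNC, the core of the metal response element.
Mt3 promoter, chr8:94152357-94152636, plus strand: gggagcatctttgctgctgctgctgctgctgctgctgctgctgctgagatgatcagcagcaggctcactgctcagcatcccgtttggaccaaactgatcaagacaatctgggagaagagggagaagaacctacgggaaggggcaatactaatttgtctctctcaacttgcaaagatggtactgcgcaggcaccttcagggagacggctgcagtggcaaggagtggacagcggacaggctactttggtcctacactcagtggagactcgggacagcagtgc
Mt2 promoter, chr8:94172368-94172647, plus strand: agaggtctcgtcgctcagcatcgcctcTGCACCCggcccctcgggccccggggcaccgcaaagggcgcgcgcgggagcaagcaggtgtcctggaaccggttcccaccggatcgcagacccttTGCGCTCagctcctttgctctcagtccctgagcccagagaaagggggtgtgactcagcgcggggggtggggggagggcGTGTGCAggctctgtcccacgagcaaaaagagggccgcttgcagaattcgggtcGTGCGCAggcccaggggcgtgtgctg
Mt1 promoter, chr8:94178839-94179118, plus strand: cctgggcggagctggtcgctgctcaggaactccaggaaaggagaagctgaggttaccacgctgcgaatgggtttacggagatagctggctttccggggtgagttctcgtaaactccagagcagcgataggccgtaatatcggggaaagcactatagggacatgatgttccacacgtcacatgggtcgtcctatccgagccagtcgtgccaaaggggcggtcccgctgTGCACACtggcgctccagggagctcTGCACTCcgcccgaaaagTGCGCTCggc
The Mt2 window held 4 matches, and 0.405% of 32851 RefSeq promoters of the same length held at least as many. The Mt1 window held 3, and 1.73% of promoters held at least as many. The Mt3 window held 0 (1 over the 300 bases that the RefSeq table holds), while 24.1% of all promoters held at least 1. The Mt2 match that begins 4 bases after the start and the Mt1 matches that begin 2 and 20 bases after it lie downstream of the RefSeq start. In the GENCODE annotation used for gene positions, Mt2 starts at 94172664, past the end of its window at 94172647. All 4 Mt2 matches lie upstream of that start. A match is a description of these letters and not a measured site, and any link to the levels was not tested.

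Mt1 (ENSMUSG00000031765, chromosome 8, 94179082 to 94180327) stood at 45.1, 43.8 and 39.1 CPM in WT, at 29.3, 53.7, 45.5 and 28.2 CPM in cKO 1 to 4 and at 29.6 CPM in the library labelled cKO 5. The cKO libraries lay on either side of the WT values, and the log2 fold change was -0.19 (SE 0.22). Mt2 (ENSMUSG00000031762, chromosome 8, 94172664 to 94173568) stood at 13.8, 9.92 and 10.9 CPM in WT, at 9.77, 14.2, 9.79 and 12.5 CPM in cKO 1 to 4 and at 4.73 CPM in the library labelled cKO 5, with a log2 fold change of -0.18 (SE 0.31), or -4.5e-04 without that library. Mt1 and Mt2 both had their highest value in cKO 2. Mt3 (ENSMUSG00000031760, chromosome 8, 94152607 to 94154146) stood at 3.59, 0.657 and 1.15 CPM in WT, at 1.15, 1.04, 1.03 and 2.40 CPM in cKO 1 to 4 and at 0.869 CPM in the library labelled cKO 5, with a log2 fold change of -0.47 (SE 0.59). WT 1 and cKO 4 stood above the rest for Mt3, and without WT 1 its log2 fold change was 0.52. Per length, Mt1 exceeded Mt3 in all 8 libraries, from 10.1 times in cKO 4 to 57.0 times in WT 2, and exceeded Mt2 by 1.06 to 2.96 times. The exon length used for Mt1, 1246 bases, covers its whole span on the chromosome, introns included, against 588 bases for Mt2 and 1066 for Mt3. These ratios, and the place of Mt1 in the order of levels per length, depend on those lengths.

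Genes of metal handling other than the metallothioneins gave 2 higher and 0 lower of 16 at an unadjusted edgeR p under 0.05, with a median log2 fold change of 0.11. Hmox1, the haem oxygenase that is induced by oxidative stress, was at 2.12 ± 0.431 CPM over the 3 WT libraries (mean ± SD) and 4.22 ± 1.29 CPM over the 5 cKO libraries, without overlap. By edgeR this came to 0.99 (SE 0.34) on the log2 scale, Benjamini-Hochberg adjusted p 0.499. Slc30a1, a zinc exporter and MTF-1 target, was at 16.1 ± 0.623 and 21.2 ± 3.66 CPM, also without overlap (log2 fold change 0.40, SE 0.17). Of 10 glucocorticoid-induced genes, edgeR put 2 higher and 1 lower with unadjusted p-values under 0.05, with a median of 0.07. Per1, a clock gene, was at 28.9 ± 4.27 and 42.6 ± 11.7 CPM. The lower gene, Tsc22d3 (GILZ), was at 49.9 ± 2.24 CPM in WT and 30.7 ± 10.01 CPM in cKO.

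The other lists of astrocyte functions also gave no call by edgeR. The glutamate and glutamine cycle outside the 32 genes had 2 higher and 1 lower of 14 tested at an unadjusted p under 0.05 (median 0.04). Among these, Slc17a7, the vesicular glutamate transporter of excitatory neurons, was at 344 ± 17.9 CPM in WT and 484 ± 44.7 CPM in cKO, with a log2 fold change of 0.49 (SE 0.10). Gls2, a glutaminase, was at 9.81 ± 1.06 and 6.57 ± 1.75 CPM. Apolipoprotein receptors and lipid export had 1 higher, the receptor gene Lrp8 at 0.35 (SE 0.14), and 1 lower, Apoo at -0.25 (SE 0.11), of 15. Only 3 of 8 other connexins had enough counts to be tested, and 0 of them had an unadjusted p under 0.05. The 34 other astrocyte genes tested had 3 higher and 1 lower, with a median of 0.33.

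Markers of other glial cells in the same libraries are given beside these values. All 14 oligodendrocyte markers tested had log2 fold changes above 0, with a median of 0.73 and 3 at an unadjusted edgeR p under 0.05. Their summed level was 123 to 126 CPM in WT and 119 to 201 CPM in cKO, and Gjb1 had at most 3 counts in every library. Markers of oligodendrocyte precursors had a median of 0.56, with 3 of 10 at an unadjusted p under 0.05, and summed to 49.4 to 57.9 CPM in WT and 61.0 to 93.3 CPM in cKO. Microglial markers summed to 10.9 to 19.4 CPM in WT and 7.97 to 15.7 CPM in cKO, with a median of -0.11 over 8 tested and 1 lower at an unadjusted p under 0.05. Markers of GABAergic neurons (median 0.12 over 13) and of CCK interneurons (0.18 over 10) had 0 genes at an unadjusted edgeR p under 0.05. The median was 0.19 over 14 markers of glutamatergic neurons and 0.06 over 12 of neurons of any type, and in each of these lists 3 genes were higher and 0 lower with unadjusted edgeR p-values under 0.05. It was 0.46 over 5 vessel markers, with 0 in either direction, and 1.19 over 5 markers of choroid plexus and ependyma, with 1 higher. The part of these cell types in the values of Slc6a11 and the other astrocyte genes was not tested.

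Across libraries, the 32 genes together took 0.102 to 0.114% of the counts in WT, with a mean of 0.106 ± 0.00668% (SD, n = 3). They took 0.110 to 0.125% in cKO, with a mean of 0.115 ± 0.00604% (SD, n = 5), or 0.116 ± 0.00615% (SD, n = 4) without the library labelled cKO 5. The ranges overlapped. The summed level of the 6 markers Gfap, Aqp4, Aldh1l1, Slc1a3, Gja1 and Sox9 was 10.2 ± 1.83 CPM in WT and 11.6 ± 3.49 CPM in cKO, or 12.9 ± 2.36 CPM without the library labelled cKO 5.

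That library held the most extreme values. It was the highest of 8 for 7 astrocyte genes, namely Gjb6, Atp1b2, Slc7a10, S100b, Fgfr3, Clu and Htra1. It was the lowest for 9, namely Gja1, Aqp4, Mlc1, Slc4a4, Acsbg1, Plpp3, Sparcl1, F3 and Mt2. These are 21.9% and 28.1% of the 32 genes, and over all genes tested it was the highest for 22.4% and the lowest for 22.8%, so the shares were near those of genes at large. Of the 15 astrocyte genes under 1 RPKM in WT, it was the lowest for 6 and the highest for 2. In cKO 2, 7 astrocyte genes were at their highest (21.9%, against 9.99% of all genes tested), among them Gfap, Acsbg1, Cst3, Mt1 and Mt2, and in WT 2 only Mlc1 was.

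**Figure D5:**
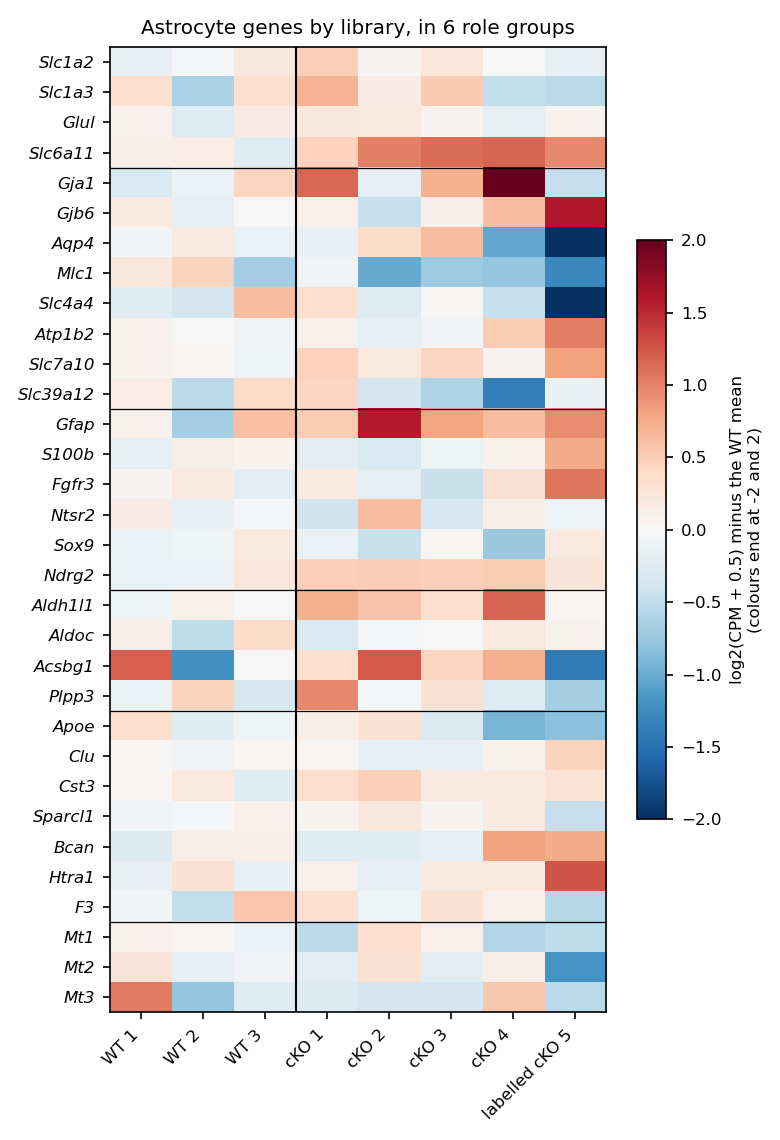
Log2(CPM + 0.5) of each astrocyte gene (rows, by role) in each library (columns) minus the mean of the WT libraries; colours end at -2 and 2, and the last column is the library labelled cKO 5. That column shows low Aqp4, Mlc1, Slc4a4 and Acsbg1 beside high Gjb6 and Htra1, while Slc6a11 is above WT in every cKO column.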

How the data were processed

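RNA sequencing counts of 8 TRAP libraries were analysed, 3 WT and 5 cKO. The authors' deposited table holds raw counts per gene, without scaling. Per the submitters' processing notes, STAR 2.5.3a, HTSeq and the build mm10 were used; the annotation release, strandedness and filters are not given in the sources used here. Symbols, positions and exon lengths came from GENCODE vM21 for the same build and matched 96.6% of genes, and promoters came from RefSeq (GRCm38.p6).

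The quasi-likelihood test of edgeR 4.0.16 (R 4.3.3; robust, two-sided, after trimmed-mean scaling and filterByExpr) was run over 17654 genes, with Benjamini-Hochberg adjustment and a call at an adjusted p under 0.05. The test was tested on simulated data, with changes only in genes at a mean of 1 CPM or more. It recovered 7, 28, 36 and 41 of 50 genes changed by 1.5, 2, 3 and 4 times, with 4 false calls. Recovery of genes below that level was not tested. Alternatives were other scalings and filters, dispersions not robust, DESeq2 1.42.0, limma-voom with library quality weights (limma 3.58.1), and each library left out. The rest used 6 libraries, WT 1 to 3 and cKO 1 to 3, with and without the library number as a block. Some genes overlap others, 8 of the 32 among them. Values in every library are given for genes at an unadjusted p under 0.05, the 6 highest per length, Gfap, Aqp4, Aldh1l1, Slc1a3, Gja1, Sox9 and the metallothioneins; from other lists, up to 3 genes of smallest p at 1 CPM or more, some of which are not reported here. The genes, lists and rules were chosen with earlier results of these data known. Figures used matplotlib 3.10.9.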

Additional observations from a re-analysis of the deposited data

Results flagged for a closer look

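In 5 of 35 values tested, 1 of the 5 cKO libraries stood far from the others, and 4 of these were in the library labelled cKO 5 and 1 in cKO 4. About 1.75 would come by chance if the values were independent, but all come from the same 5 libraries. The share of all genes that meet the same rule is not given here, so the count says nothing particular about astrocyte genes. S100b was at 9.89 CPM in the library labelled cKO 5, against 4.52 to 5.98 CPM in the other cKO libraries. Htra1 was at 10.1 CPM there, against 3.48 to 4.66 CPM. Ndrg2 was at 12.6 CPM there, the lowest, against 14.7 to 15.1 CPM. Hltf was at 11.4 CPM there, against 2.83 to 5.10 CPM. Mt3 was at 2.40 CPM in cKO 4, against 0.869 to 1.15 CPM in the other cKO libraries, and WT 1 was higher still at 3.59 CPM.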

How the results depend on the processing

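Over 18 alternatives, 267 of 281 comparisons of the 16 astrocyte genes with values given in every library kept their direction and their side of the threshold. DESeq2 gave some of these genes no adjusted p, so only their direction could be compared there. Slc6a11 came to pass by DESeq2, which gave 1 gene called higher, against 0 by edgeR. The count at an unadjusted p under 0.05 and higher, 5, was 6 by DESeq2 and 6 by limma-voom. It was 3 with library totals alone, 3 with the replicate block and 1 to 5 with 1 library left out. The count lower, 0, was 0 to 1. The median of 0.10 was 0.014 to 0.16 with 1 library left out. The count higher without overlap, 2, was 4 over 6 libraries, 1 with library totals alone and up to 4 with 1 library left out; the count lower, 0, was up to 1. Among these 16, signs turned for 6 genes; the other 16 were not followed over all alternatives. Sparcl1 was -9.0e-04 with library totals alone and -0.020 to 0.12 with 1 library left out, below 0 without cKO 2 or cKO 4. Over 6 libraries without and with the block, Atp1b2 was -0.052 and -0.055 and Aqp4 0.35 and 0.32, and Mt1 was 0.0022 without the block. With 1 library left out, Aqp4 was -0.58 to 0.078, above 0 without the library labelled cKO 5, Mt3 was -0.87 to 0.52, above 0 without WT 1, and Slc1a3 was -0.19 to 0.28, below 0 without WT 2, cKO 1 or cKO 3. The cause of these shifts was not tested. The labels do not say whether the library numbers pair the groups, and pairing was not tested. As a description, deviations of same-numbered libraries from their group means correlated at -0.05, 0.00017 and -0.14 over 13040 genes. The genes under 1 RPKM rest on few counts, which limits what their comparison can show.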
